A study of Mus musculus with 4 samples.

Results

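The m6A peaks of 8 genes of hepatic fatty acid oxidation were examined in mouse liver RNA. The genes were Ppara, Lpin1, Acsl1, Cpt1a, Cpt2, Acadl, Ehhadh and Fgf21, chosen by name, and a peak was counted as theirs where it carried one of these gene symbols. No enzyme of ketone body synthesis itself is among them. The genes had 16 of 14057 peaks in the list from Alkbh5flox/flox (FF) livers and 20 of 14693 peaks in the list from Alkbh5-HKO livers. FF peaks were found on all 8 genes and HKO peaks on 7, and 0 genes were without a peak in either list. The genes with a peak in either list numbered 9650 in all.

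The data came from methylated RNA immunoprecipitation sequencing (MeRIP-seq), in which an antibody enriches RNA fragments that carry N6-methyladenosine (m6A), and these are sequenced next to a non-enriched input. The FF mice carry floxed alleles of Alkbh5, the gene of an enzyme that removes m6A from RNA, and the Alkbh5-HKO mice are the knockout, whose abbreviation is left unexplained in the labels; the driver of the deletion and the deleted part of the gene are not given in the sources used here. All mice ate normal chow and had an age of 9 weeks, and RNA of 3 mice was pooled for each genotype before a single immunoprecipitation (IP), so each genotype is 1 pool with no replicate and no difference between the lists has a test. The depth of the libraries is unknown, since peak lists hold no read totals. Of 10 hepatocyte marker genes looked up beside the tissue label, 9 had a peak in either list, and Serpina1c had none. Of these 9, 6 had an FF peak and 8 an HKO peak, beside 8376 and 8565 of all 9650 genes with a peak. Peaks in both lists were found on 5 of the 9, beside 75.6% of all genes with a peak. A marker peak shows only that its RNA was read. A peak also needs enough RNA to be read, so fewer cells of a type, less RNA per cell and less methylation cannot be told apart from the absence of a peak.

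In the fasting liver, fatty acids are bound to coenzyme A, passed into mitochondria as carnitine esters and shortened by beta-oxidation, and the acetyl-CoA that results is turned into ketone bodies for other organs. PPARα is the nuclear receptor that switches on most genes of this route, including those of the peroxisomal branch and the hormone FGF21. m6A is the most common internal mark of messenger RNA; it is often found near the stop codon and in long last exons, is written by the METTL3 and METTL14 complex, and affects splicing, decay and translation of the transcript.

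Peaks at transcript starts are shown first. Which base in them was marked, and whether the mark was internal m6A, was not tested. On Ppara and Ehhadh start peaks were found in both lists. On Acadl and Fgf21 they were found in the FF list alone, with log10 q of -2.07 and -2.63. The stretches below are RefSeq sequence of build GRCm38.p6 in the direction of transcription, with 60 bases before an annotated transcript start and the first 30 transcribed bases. Capitals mark the bases that lie inside the peak named.
Ppara, FF peak, chr15:85735716-85735805, plus strand: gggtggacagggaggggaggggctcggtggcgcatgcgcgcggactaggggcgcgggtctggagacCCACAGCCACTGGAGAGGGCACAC
Ppara, HKO peak, same stretch: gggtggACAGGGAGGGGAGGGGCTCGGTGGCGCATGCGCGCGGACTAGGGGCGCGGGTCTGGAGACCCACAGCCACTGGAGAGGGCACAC
Acadl, FF peak, chr1:66863280-66863369, minus strand: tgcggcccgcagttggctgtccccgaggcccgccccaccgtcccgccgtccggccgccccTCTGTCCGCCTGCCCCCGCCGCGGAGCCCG
Ehhadh, FF and HKO peaks, chr16:21787805-21787894, minus strand: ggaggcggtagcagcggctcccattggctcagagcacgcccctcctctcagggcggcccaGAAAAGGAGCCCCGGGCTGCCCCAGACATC
Fgf21, FF peak, chr7:45615461-45615550, minus strand: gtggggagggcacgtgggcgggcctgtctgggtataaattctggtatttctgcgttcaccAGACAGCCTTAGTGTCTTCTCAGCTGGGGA

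The start peaks of Acadl, Ehhadh and Fgf21 began at the annotated first base of the gene. Peak edges here and below are those given by the authors' peak caller. How closely they follow the marked bases was not tested. On Ppara the FF peak began 6 bp after the RefSeq transcript start, and the HKO peak 54 bp before it, and the annotated gene span begins further upstream, at chr15:85734910. The general m6A motif is 5 bases long (A, G or T, then A or G, then A, then C, then A, C or T). It was searched on the transcribed strand in the first 50 bases of each transcript. Fgf21 held it as AGACA from base 1 and AAACA from base 44, both inside its FF peak. Ehhadh held AGACA from base 24, inside the peaks of both lists, and Ppara AGACC from base 3, inside the HKO peak and across the edge of the FF peak, which begins at base 7. Bases before a transcript start were not searched. The Ppara stretch shown above holds GGACT there, inside the HKO peak and outside the FF peak. It also holds GGACA there, across the edge of the HKO peak and outside the FF peak. The first 50 bases of Acadl held no match and were 82% G and C. Among all 32851 annotated starts the motif was found in 54.4%, so a match is common at this length and is given as a description only. It was found in 43.9% of the 1119 starts with at least 30 of these 50 bases inside an FF peak, and in 51.6% of the 539 with as many inside an HKO peak. The median G and C content was 56% over all starts, 64% over the FF set and 62% over the HKO set.

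**Figure D1:**
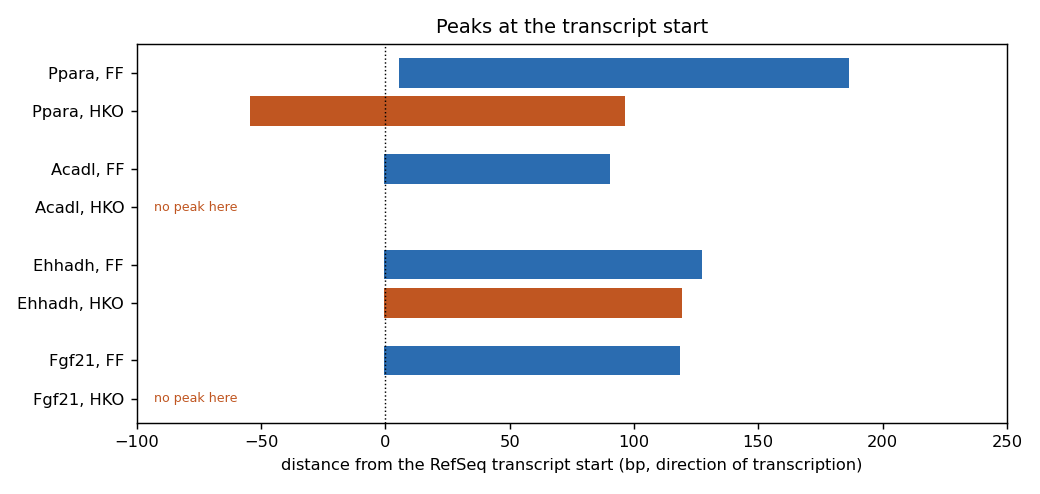
Exonic blocks of peaks at the RefSeq transcript start of 4 genes, as distance in bp in the direction of transcription (0 is the first base), FF in blue and HKO in orange. Ppara and Ehhadh have a peak in both lists, while Acadl and Fgf21 have one in the FF list and none there in the HKO list; a 22 bp block of the Ehhadh FF peak lies outside the axis.

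Most peaks of the 8 genes overlapped a peak of the other list, as did most peaks of the lists as a whole. Of the 16 FF peaks, 14 overlapped an HKO peak by at least 1 bp of exon on the same strand, where 74.8% of all FF peaks did. Of the 20 HKO peaks, 13 overlapped an FF peak, where 71.5% of all HKO peaks did. With peaks in both lists, 7 of the 8 genes stood beside 75.6% of all genes with a peak; Fgf21 was in the FF list alone, as were 11.2% of all genes. None of the 36 peaks lay within the annotated span of another gene. The 2 FF peaks without a partner lay on Acadl and Fgf21. The 7 HKO peaks without a partner lay on Ehhadh (3 peaks), Ppara, Lpin1, Cpt2 and Acadl (1 each).

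The fold enrichment of IP over input, the authors' own value for each peak, was low on these genes. The 16 FF peaks had a median fold of 3.90, from 1.63 to 19.8, where all FF peaks had a median of 8.80. The 20 HKO peaks had a median of 5.02, from 1.89 to 28.9, where all HKO peaks had 10.4. Above the median of their list lay 3 FF peaks (on Ppara, Cpt2 and Ehhadh) and 4 HKO peaks (on Ppara, Cpt2, Acadl and Ehhadh). Statistical support within each IP was strong all the same, with a median log10 q of -45.0 over the FF peaks and -52.8 over the HKO peaks, against -7.79 and -8.70 for the whole lists. With q limited to 1e-05, 14 FF and 18 HKO peaks of the members remained, where 62.3% of all FF peaks and 65.5% of all HKO peaks were. Folds of the lists come from separate IP reactions, so values set side by side give no direction of change, and a percentile below is the place of a fold within its own list.

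**Figure D2:**
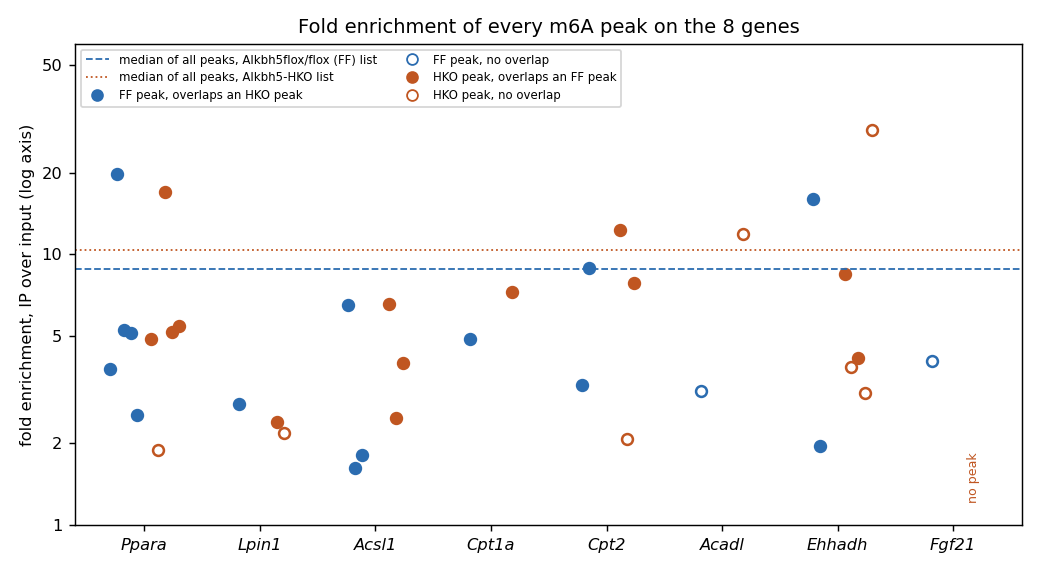
Fold enrichment of IP over input (log axis) of each peak, with peaks of a gene ordered from its start to its end within each list; filled points overlap a peak of the other list, open points do not, and horizontal lines are the medians of all peaks. Most points lie below the lines, and Fgf21 has an FF point and no HKO point.

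Ppara, the gene of the receptor PPARα, had 5 peaks in each list. As many were found on 148 of 8376 FF genes (1.77%) and 207 of 8565 HKO genes (2.42%). The gene spans chr15:85734910-85806851 on the plus strand. The strongest FF peak, chr15:85801032-85801542, had a fold of 19.8 (log10 p -348, percentile 85.5), and its q was too small for the file to hold. It lay wholly inside the strongest HKO peak, which had a fold of 17.0 (log10 q -301, percentile 73.2). That HKO peak joined a 9 bp exon piece to a block of 1162 bp across a splice junction, and it also covered 451 of the 601 bp of the next FF peak, chr15:85801722-85802322 (fold 5.27, log10 q -27.3). A stretch that the FF list gives as 2 peaks was thus a single peak in the HKO list.

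Further along Ppara the lists ran in parallel. The FF peak chr15:85802592-85802832 (fold 5.14) lay inside an HKO peak of 391 bp (fold 5.15), and the FF peak chr15:85805411-85805591 (fold 2.54) inside an HKO peak of 361 bp (fold 5.43), both towards the gene end. At the transcript start the FF peak chr15:85735782-85735962 had a fold of 3.76 (log10 q -6.02), and the HKO peak chr15:85735722-85735872 one of 4.88 (log10 q -2.90). They shared 91 bp. The HKO list held a weak additional peak of 121 bp, chr15:85798015-85798135 (fold 1.89, log10 q -2.57), that overlapped no FF peak. Together the FF peaks covered 1715 bp of Ppara exon, and the HKO peaks 2195 bp.

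Lpin1 encodes lipin 1, a phosphatidate phosphatase that also acts in the nucleus as a partner of PPARα and its coactivator PGC-1α. It had 1 FF peak at chr12:16538245-16538485 on the minus strand, with a fold of 2.80 (log10 q -37.8). An HKO peak that ends at the same base and is 301 bp long contained it, with a fold of 2.41 (log10 q -29.3). The HKO list had a further peak of 121 bp at chr12:16538005-16538125, with a fold of 2.18 (log10 q -6.53), which overlapped no FF peak. All lay between 2396 bp and 2726 bp before the gene end, in the last part of a gene of 118 kb, and all were in the lowest 10.6% of folds of their list.

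Acsl1 encodes a major long-chain acyl-CoA synthetase of liver, which joins fatty acids to coenzyme A. Its 3 peaks matched between the lists one by one, all centred within 1465 bp of the end of a gene of 65.0 kb on chromosome 8. The first, chr8:46534346-46534855 in FF and chr8:46534346-46534825 in HKO, began at the same base and had folds of 6.49 and 6.58. Its log10 p of -2130 in FF and -1050 in HKO were the smallest of all member peaks. The other two had folds of 1.63 and 1.81 in the FF list, at percentiles 1.18 and 2.17, and of 2.49 and 3.98 in the HKO list, at percentiles 5.99 and 17.7. In both, the FF peak lay inside the HKO peak, with 210 bp in 270 bp and 150 bp in 240 bp.

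The carnitine shuttle was represented by Cpt1a and Cpt2. CPT1A, on the outer mitochondrial membrane, forms acylcarnitine and is the rate-setting step of fatty acid entry, and CPT2 on the inner membrane returns the acyl group to coenzyme A. Cpt1a had a single peak in each list with the same first base, chr19:3383758-3384297 in FF (fold 4.88, log10 q -288) and chr19:3383758-3384327 in HKO (fold 7.27, log10 q -231). Their limits differed by 30 bp at 1 side only, and their centres lay 1707 bp and 1692 bp before the gene end. No peak was listed at the start of Cpt1a in either list.

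Cpt2 had peaks of both lists at 2 separate places of the minus strand of chromosome 4. The peak at the gene end included the last annotated base in both lists, chr4:107903982-107904458 in FF (fold 8.89, log10 p -465) and chr4:107903982-107904398 in HKO (fold 7.82, log10 q -257). The other peak lay at about 80% of the gene span, chr4:107907528-107908123 in FF (fold 3.29, log10 q -52.3, percentile 15.0) and chr4:107907528-107908153 in HKO (fold 12.3, log10 q -73.5, percentile 57.8). The same end base and 596 shared bp thus went with a low place among FF folds and a middle place among HKO folds. Between these places the HKO list had a 120 bp peak, chr4:107907023-107907142 (fold 2.07, log10 q -9.42), without an FF partner.

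Acadl, which encodes the long-chain acyl-CoA dehydrogenase of mitochondrial beta-oxidation, was the only member with peaks in both lists that did not overlap. The FF peak was the 91 bp at the transcript start shown above, chr1:66863219-66863309, with a fold of 3.13 (log10 q -2.07). The HKO peak was at the opposite end of the gene, chr1:66830839-66831019, included its last annotated base, and had a fold of 11.9 (log10 q -9.85). Over all genes with peaks in both lists, 298 of 7291 (4.09%) had no overlapping pair. Of these 298, 70 had the centre of an FF peak up to 500 bp from the gene start and that of an HKO peak up to 1000 bp from the gene end, as Acadl did, and 4 had the reverse. With q limited to 1e-05 in both lists the FF peak of Acadl was lost, and the gene then had a peak in the HKO list alone.

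Ehhadh encodes the peroxisomal bifunctional enzyme, which carries out the middle steps of peroxisomal beta-oxidation and is a classical PPARα target. It differed most in the number of peaks, with 2 FF peaks and 5 HKO peaks. At the start, the FF peak joined 128 bp of the first exon to 22 bp of the next exon block (fold 16.1, log10 q -21.8, percentile 78.2). The HKO peak covered 120 bp of that first block and did not reach over the junction (fold 8.49, log10 q -7.42, percentile 42.1). The second shared place was chr16:21762745-21763221 in FF (fold 1.95, log10 q -34.5) and chr16:21762804-21763221 in HKO (fold 4.13, log10 q -65.8).

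The other 3 HKO peaks of Ehhadh overlapped no FF peak. The spliced peak of 210 bp between chr16:21766438 and chr16:21770495 had a fold of 3.82 (log10 q -15.2). The peak chr16:21761523-21761821 had a fold of 3.08 (log10 q -51.9). The last, chr16:21761285-21761464, included the last annotated base of the gene and had a fold of 28.9, the highest of all member peaks, with a log10 q of -6.87. The HKO peaks thus covered 1227 bp of Ehhadh exon and the FF peaks 627 bp. In the FF list no Ehhadh peak was listed in the last 1460 bp before the gene end.

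**Figure D3:**
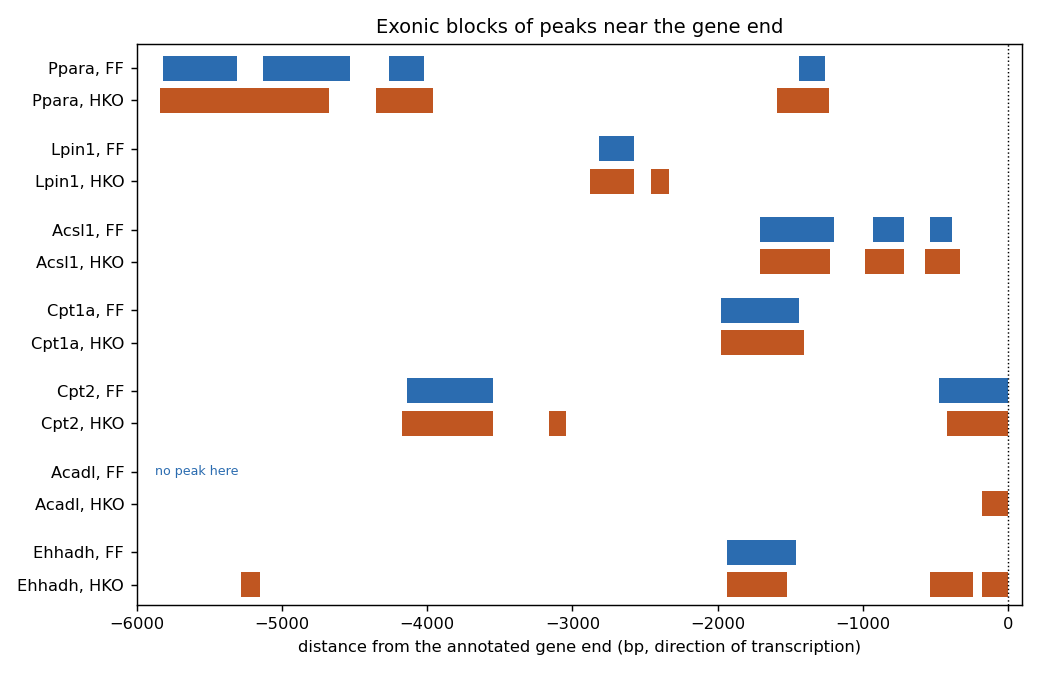
Exonic blocks of peaks in the last 6000 bp of 7 genes, as distance in bp from the annotated gene end (0) in the direction of transcription, FF in blue and HKO in orange. Blocks of Acsl1 and Cpt1a lie at the same places in both lists, as do those of Cpt2 but for an HKO block of 120 bp, whereas Acadl and the last 1460 bp of Ehhadh have HKO blocks and no FF block.

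Fgf21, the fasting hormone that liver secretes under the control of PPARα, had the fewest peaks. The gene is short, chr7:45613890-45615490 on the minus strand, and its single FF peak covered the first 119 bp, chr7:45615372-45615490, with a fold of 4.05 (log10 q -2.63, percentile 21.6). No HKO peak was listed. With q limited to 1e-05 the FF peak was lost too, so the gene then had no peak in either list. With a fold of 2 or more required, the peak remained.

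By position, the members had more peaks at gene ends than at gene starts in the HKO list. Their centres lay within 500 bp of the annotated start of the gene for 3 of 16 FF peaks (Acadl, Ehhadh and Fgf21) and 1 of 20 HKO peaks (Ehhadh), beside 15.0% of all FF peaks and 7.39% of all HKO peaks. The Ppara start peaks are not in these counts, because the gene span begins upstream of the RefSeq start shown; with distance taken from the nearest listed transcript start the counts were 4 and 2, beside 19.1% and 9.43%. Centred within 1000 bp of the gene end were 3 FF peaks (1 of Cpt2 and 2 of Acsl1) and 6 HKO peaks (the same places and those of Acadl and, with 2 peaks, Ehhadh), where 26.6% of all FF peaks and 31.0% of all HKO peaks were. Of the peaks without a partner, both FF peaks lay at a gene start, as did 34.7% of all FF peaks without a partner. Of the 7 such HKO peaks, 3 lay at a gene end and 0 at a gene start, where 33.6% and 4.71% of all HKO peaks without a partner did. The end share of FF peaks without a partner was 17.1% in the whole list and 0 of 2 here. The split between starts and ends is a trait of the lists as a whole, and with so few member peaks nothing particular to these genes can be read from it.

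**Figure D4:**
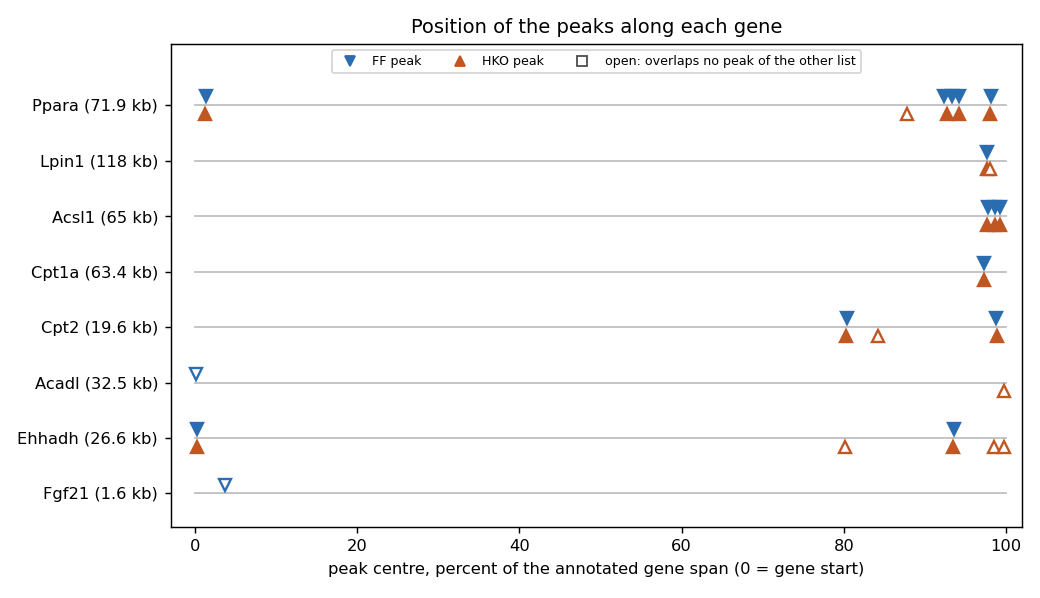
Centre of each peak as percent of the annotated gene span (0 is the gene start), FF above and HKO below each line; open marks overlap no peak of the other list, and the gene length is given beside the name. The marks lie at the start and from 80.2% of the span on; Acadl has an FF mark at the start and an HKO mark at the end.

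The wider pathway was read from a list of 93 genes in 7 role groups, the 8 members included, of which 74 had a peak. Of these 74, 67 (90.5%) had peaks in both lists, 3 in the FF list alone and 4 in the HKO list alone, beside 75.6%, 11.2% and 13.2% of all genes with a peak. The pathway list was chosen by known role with earlier results of these data known, so these shares are a description only. All 12 nuclear regulators, among them the PPARα partner Rxra and the coactivators Ppargc1a and Ppargc1b, had peaks in both lists. The group with the most genes without a peak in either list was mitochondrial beta-oxidation, with 8 of 18, including Acadvl, Hadhb, Hadh, Echs1 and Acaa2. In the group of fatty acid uptake, binding and activation it was 4 of 12. The share of all annotated genes without a peak is not given here, and a missing peak does not show less methylation.

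In the FF list alone were Etfb, a subunit of the flavoprotein that takes electrons from acyl-CoA dehydrogenases (fold 21.9, log10 q -21.5), Hsd17b4, the second peroxisomal bifunctional enzyme (fold 1.91, log10 q -9.27), and Fgf21. The Etfb peak, like that of Fgf21, was centred near the gene start, at 117 bp. In the HKO list alone were Acsl3, an acyl-CoA synthetase (fold 10.2, log10 q -5.67), Slc22a5, the carnitine importer (fold 2.48, log10 q -2.15), Cyp4a14 (fold 2.92, log10 q -69.3) and Cyp4a12a (2 peaks, folds 5.73 and 5.96). The last pair encode omega-hydroxylases of fatty acids in a family of close copies that may share reads, so their peaks are uncertain. The highest folds of the pathway list in FF belonged to Acat1 (49.3), Ppargc1b (27.4), Sirt1 (25.8), Etfb (21.9) and Ncoa2 (21.5). In HKO they belonged to Sirt1 (95.0), Acat1 (63.6), Klb (55.6), Acaca (49.2) and Abcd2 (47.9). Acat1 makes acetoacetyl-CoA, the entry to ketogenesis, and Klb encodes the co-receptor of FGF21.

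The 85 listed genes that are not members had a median fold of 3.99 over 121 FF peaks and 7.15 over 116 HKO peaks, beside 8.80 and 10.4 over all peaks. Of these peaks 20.7% in FF and 9.48% in HKO were centred within 500 bp of the gene start, beside 15.0% and 7.39% of all peaks. Within 1000 bp of the gene end were 26.4% and 37.1%, beside 26.6% and 31.0%.

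**Figure D5:**
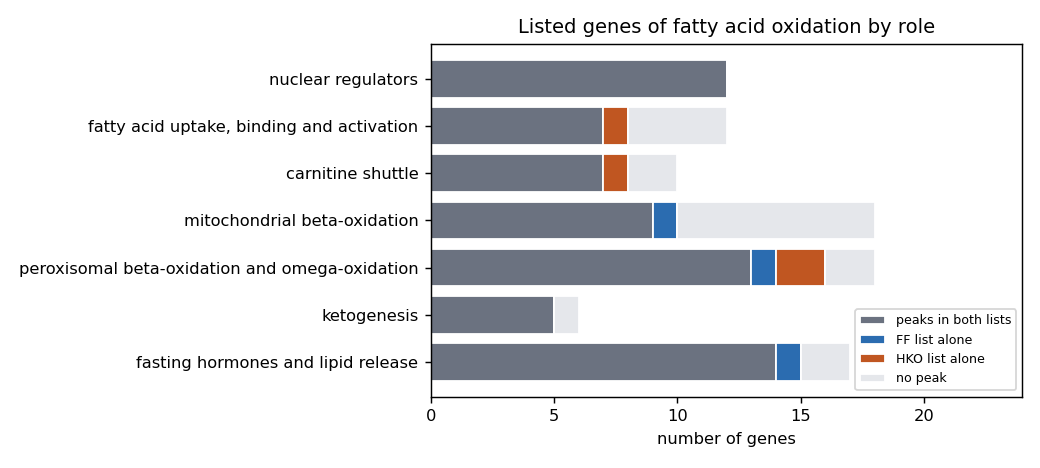
Number of listed genes per role that had peaks in both lists (grey), in the FF list alone (blue), in the HKO list alone (orange) or in neither (light grey). The bar of nuclear regulators is grey throughout (12 genes), and that of mitochondrial beta-oxidation has the longest stretch without a peak (8 of 18 genes).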

How the data were processed

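Per the design text of the series, the authors ran exomePeak 2.16.0 on the IP and input of each genotype and kept peaks at a q-value cutoff of 0.05. Per the submitters' processing notes, fastp 0.19.11, BWA 0.7.12, HOMER 4.9.1 and build GRCm38.p6 were used. The deposited lists give for each peak a p-value, its log10 and the log10 of the q-value (scores without a lower bound, at minus infinity where q was too small to hold), and a fold enrichment, the authors' ratio of IP over input. The p-value column was identified by its logarithm, which differed from the listed log10 p by at most 0.02. The labels and design text name different antibodies and library kits, so whether reads mark the strand is not known.

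Peaks were matched by exon blocks in Python 3.11.15 (numpy 2.4.6, pandas 2.3.3, scipy 1.17.1), with figures drawn in matplotlib 3.10.9. The matching code was run on shifted copies of the FF peaks whose overlaps were known beforehand. That checks the code and not the agreement of separately called lists. A peak's centre is the middle base of its exonic sequence, and gene spans, transcript starts and start sequences are RefSeq's for GRCm38.p6. Coordinates count from 1. All peaks of all members were described; of the pathway list, genes found in 1 list alone and the 5 highest folds per list were named. The members and gene lists were chosen with earlier results of these data known. Beyond the RefSeq transcript starts and the windows around them, transcript models and genome sequence were not used here, so no position in coding or untranslated parts is given.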

Additional observations from a re-analysis of the deposited data

How the results depend on the processing

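Of 32 recomputed counts, 28 stayed within 1.5 times of the reported one. Some of the 32 came from setting both lists to the length of the shorter, which changed no count. The limit is loose for small counts. For the FF peaks of the members at the gene end, 3 and 2 were taken as the same. With q limited to 1e-05 in both lists, pathway genes in the FF list alone rose from 3 to 5 and those in the HKO list alone from 4 to 10. Those with peaks in both lists fell from 67 to 57. A fold of 2 or more gave 4 in the FF list alone, 8 in the HKO list alone and 61 in both. The shares over all genes at these 2 settings are not given here, so these counts have nothing to stand beside. With distance from the nearest listed transcript start, a choice made after the data were seen, the HKO peaks of the members at a start became 2 in place of 1, because Ppara was added. With 0.5 of the shorter peak required to overlap, or spans compared in place of exon blocks, 14 FF and 13 HKO peaks of the members still had a partner. The fold minimum removed Acsl1 and Ehhadh peaks from the FF list (3 in all) and 1 Ppara peak from the HKO list. The shares over all peaks under these overlap rules and the fold minimum are not given here. The motif share of whole peaks was planned and not run, since it needs a genome sequence; the first 50 transcribed bases were searched in its place. No paired analysis was possible because each genotype had 1 pool and the labels give no replicate numbers. The lists hold no read totals, so how depth limits them is unknown.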

Other observations

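Acadl was not alone in the pathway list in having peaks in both lists without an overlapping pair. The same was seen for 7 of 67 pathway genes with peaks in both lists (10.4%, beside 4.09% of all such genes), which were chosen here after their values were seen: Acadl, Etfdh, Abcd3, Scp2, Pex5, Pdk2 and Acot12. Etfdh, the dehydrogenase that passes electrons from beta-oxidation to the respiratory chain, had an FF peak centred 103 bp from the gene start (fold 4.49) and an HKO peak centred 237 bp from the gene end (fold 1.98). Pdk2, a kinase that restrains pyruvate dehydrogenase, had an FF peak 75 bp from the start (fold 8.62, log10 q -2.91) and an HKO peak 105 bp from the end (fold 3.34, log10 q -13.9). Abcd3, a peroxisomal transporter of fatty acids, had an FF peak 209 bp from the start (fold 3.55) and an HKO peak 1317 bp from the end (fold 13.9). Acot12, an acyl-CoA thioesterase, had an FF peak 298 bp from the start (fold 2.28, log10 q -4.08) and an HKO peak 1220 bp from the end (fold 3.14, log10 q -26.8). The FF peaks of Pex5 and Scp2 were not at the start, with centres 1500 bp and 73630 bp from it (folds 4.86 and 1.25), and their HKO peaks lay 180 bp and 401 bp from the gene end (folds 3.96 and 11.5). An FF peak within 500 bp of the start together with an HKO peak within 1000 bp of the end was found on 3 of the 7, beside 70 of the 298 such genes of the whole lists (23.5%), and the reverse on 0 of the 7 and 4 of the 298. The difference was not tested, as each list comes from 1 pool.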
